A study of Arabidopsis thaliana with 6 samples.

Results

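Microtubules and actin filaments form the cytoskeleton of a plant cell. The members described here are genes of Arabidopsis thaliana on an ATH1 expression array whose symbol in the platform's probe-to-gene table marks a tubulin, an actin or a listed regulator of either, and whose probe set is assigned to exactly 1 gene. The rule covers 11 families and found 10 genes, each with 1 probe set, of 13356 genes with such a probe set. They include the alpha-tubulins TUA1 (AT1G64740) and TUA6 (AT4G14960) and the beta-tubulins TUB1 (AT1G75780), TUB5 (AT1G20010), TUB6 (AT5G12250), TUB7 (AT2G29550) and TUB9 (AT4G20890). The others are the actins ACT11 (AT3G12110) and ACT12 (AT3G46520), and ATMAP65-6 (AT2G01910) of the MAP65 family of microtubule-associated proteins. ATMAP65-6 is thus the only regulator among them, so the set is in the main a set of tubulins. Members of the other 7 families (gamma-tubulins, actin-depolymerising factors, profilins, formins, kinesins named by the rule, actin-related proteins and ARP2/3 subunits) were not analysed here. A further 2 probe sets with matching symbols each stand for 2 genes and were left out.

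The series compared cell suspensions treated with isoxaben at 0.1 mM (3 arrays) with control suspensions whose labels name no treatment (3 arrays). Isoxaben is a herbicide that blocks cellulose synthesis. All cultures grew in Murashige and Skoog medium with sucrose, the auxin naphthalene acetic acid and the cytokinin kinetin. The labels used here state no ecotype, culture age or length of treatment.

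As background, alpha- and beta-tubulin pair into the dimers that build microtubules, and each is encoded by a small family of similar genes. In interphase plant cells, microtubules under the plasma membrane guide the cellulose synthase complexes that isoxaben acts on, and in dividing cells microtubules form the preprophase band, the spindle and the phragmoplast. Proteins of the MAP65 family bind microtubules, and some of them cross-link microtubules into bundles. Actin filaments carry organelles and vesicles through the cell, driven by myosins. ACT11 and ACT12 belong to the reproductive class of actins, and ACT12 is best known from pollen. TUA1 and TUB9 are likewise known from pollen.

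Arrays had been scaled alike, with median signals of 36.9 to 37.8 on the isoxaben arrays and 31.6 to 42.0 on the control arrays. Isoxaben replicate 1 carries the code DCB in its source name, although its title and treatment label name isoxaben. Its labels thus leave some doubt about which treatment it had. Control replicate 1 had 7023 outlier cells per the labels, against 160 to 613 on the other 5 arrays. These arrays form the first of 2 sets of array titles, and the second set holds 2 arrays of each group. Each member was therefore also measured without either array and within each title set.

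The question here is how cytoskeletal transcripts differed between cultures with and without the inhibitor. The beta-tubulin genes TUB6 and TUB7 and the actin ACT11 were higher in isoxaben cultures, with 3.34, 2.32 and 2.62 times the control mean. The beta-tubulin TUB5 was higher too, over control signals that lay below the filter on dim probe sets. ATMAP65-6, TUA1 and TUB9 were lower in isoxaben cultures, with 0.355, 0.504 and 0.796 times the control mean. TUA6 and TUB1 did not pass the test, and ACT12 lay near the bottom of the signal range on every array. Of the 9 members that passed the filter on dim probe sets, 4 were called higher and 3 lower (limma, Benjamini-Hochberg adjusted p under 0.05 over all 13648 probe sets tested). TUB5 is among these 9 through its signals on the isoxaben arrays alone. The calls make up 77.8% of the 9, against 56.6% of all probe sets tested. The groups did not overlap for 7 of the 9, against 63.2% of all probe sets. Among all probe sets, 29.4% were called higher and 27.2% lower, so a call in either direction was common in this comparison. The 4 members called higher also had a log2 change of at least 1, as did 11.0% of all probe sets, and ATMAP65-6 had a change of at most -1, as did 9.92%. The median log2 change was 0.17 over the 9 members and 0.0082 over all probe sets. The median size of the change, whatever its direction, was 1.19 over the members and 0.46 over all probe sets. In bulk RNA, a change in the share of cells of 1 type and a change in RNA per cell cannot be told apart.

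**Figure D1:**
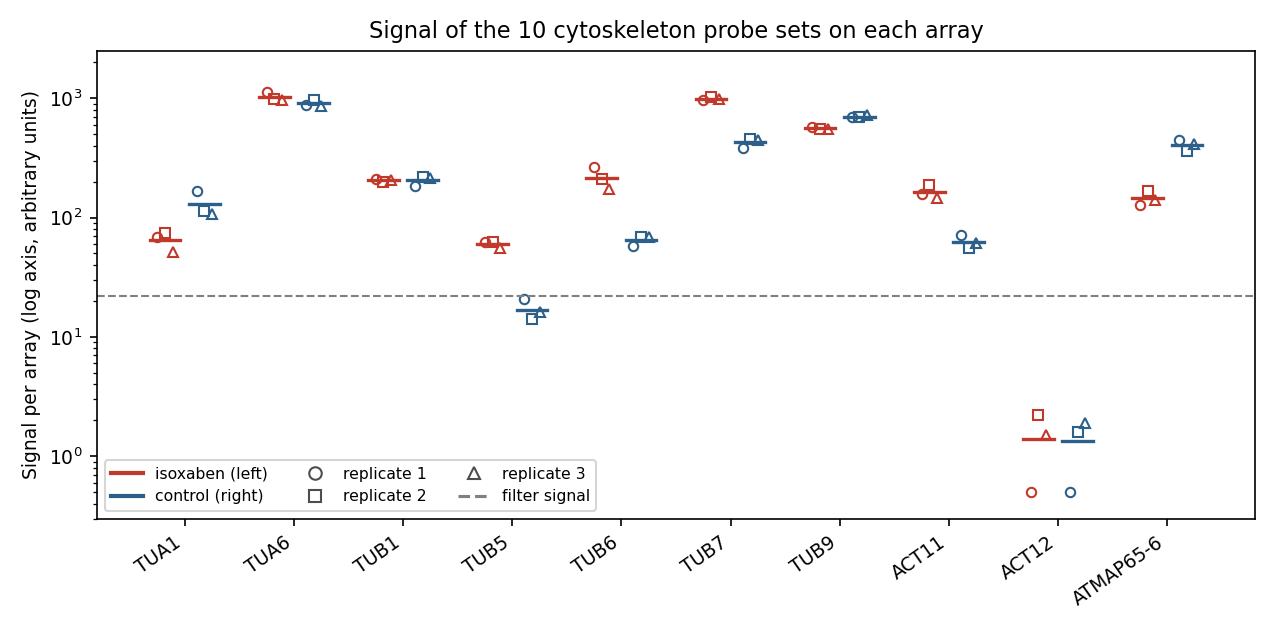
Signal of each member (log axis, arbitrary units) on the 3 isoxaben arrays (left of each pair) and the 3 control arrays (right), with the group mean as a bar and the filter signal of 22.1 as a dashed line. The groups do not overlap for TUA1, TUB5, TUB6, TUB7, TUB9, ACT11 and ATMAP65-6, and ACT12 lies far below the line in both groups.

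Among the beta-tubulins, 3 of 5 rose, TUB9 fell and TUB1 did not pass. TUB7 had signals of 957.1, 1017.2 and 986.1 on the isoxaben arrays, against 379.8, 451.4 and 447.0 on the control arrays. Its groups were separated by 505.7 signal units, and the coefficient of variation was 3.05% within isoxaben and 9.42% within control arrays. The change of TUB7 was 1.19 ± 0.10 on the log2(signal + 16) scale (SE, n = 3 each; limma adjusted p = 7.33e-06), on which all log2 changes below are given.

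TUB6 had signals of 263.5, 211.6 and 174.0 in isoxaben cultures and of 57.5, 68.3 and 68.6 in control cultures. The lowest isoxaben array was 105 units above the highest control array, although the isoxaben arrays differed among themselves more than for any other tested member (coefficient of variation 20.8%). Its log2 change, 1.51 ± 0.15 (SE), was the largest rise of the members on this scale (limma adjusted p = 2.05e-05), while with a pseudocount of 1 that of TUB5 was larger (1.71 for TUB6 and 1.79 for TUB5). TUB5 had 62.3, 62.9 and 55.8 in isoxaben cultures, against 20.7, 14 and 16.0 in control cultures. All 3 control signals of TUB5 lay below the filter signal of 22.1, so TUB5 passed the filter through the isoxaben arrays, and the size of its change, 1.22 ± 0.14 (SE; limma adjusted p = 5.84e-05), depends on the pseudocount. It was 1.79 with a pseudocount of 1 and 0.62 with one of 64. With no filter, which removes that selection, the limma adjusted p of TUB5 was 0.00052.

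TUB9 was lower in isoxaben cultures, with 570.6, 551.2 and 556.0, against 693.1, 692.8 and 721.9 in control cultures. The difference was small, with a log2 change of -0.32 ± 0.09 (SE; limma adjusted p = 0.0116), but the arrays of each group lay close together, with coefficients of variation of 1.81% within isoxaben and 2.38% within control arrays. The call of TUB9 was lost without isoxaben replicate 2 (limma adjusted p = 0.0506) or without control replicate 3 (0.0586), with log2 changes of -0.31 and -0.30. With all arrays centred on their medians, TUB9 passed only just, with a log2 change of -0.37 (limma adjusted p = 0.04998). TUB1 had 211.0, 199.6 and 205.5 in isoxaben cultures, against 184.4, 218.3 and 213.3 in control cultures. Its groups overlapped, and the 95% interval of its log2 change of 0.0033 ran from -0.24 to 0.25, which is 0.847 to 1.19 times the control value on that scale (limma adjusted p = 0.982).

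Of the 2 alpha-tubulins, TUA1 fell and TUA6 did not pass. TUA1 had 69.1, 74.9 and 51.0 in isoxaben cultures and 165.9, 113.8 and 107.2 in control cultures. All isoxaben arrays were below all control arrays, and control replicate 1 stood highest. The change of TUA1 was -0.83 ± 0.18 (SE; limma adjusted p = 0.00279), and without control replicate 1 it was -0.65 (0.00263). TUA6 had 1133.7, 979.5 and 966.7 in isoxaben cultures, against 885.8, 973.6 and 864.9 in control cultures. Its groups overlapped, and the change of 0.17 ± 0.10 (SE) did not pass (limma adjusted p = 0.178), with a 95% interval from -0.056 to 0.40. No member among the alpha-tubulins was called higher, but the 2 alpha-tubulins measured here leave out other genes of that family.

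The tubulin genes thus did not change alike, and this was also measured within arrays. For each of the 21 pairs of the 7 tubulins, the log2 ratio of the pair's probe sets was taken on every array, which cancels most of the scaling between arrays. The ratio did not overlap between the groups for 18 pairs, or 85.7%, against 66.7% of all pairs of probe sets tested. For TUB7 over TUB9 the mean log2 ratio was 0.80 ± 0.07 in isoxaben cultures and -0.70 ± 0.12 in control cultures (SD, n = 3 each), a difference of 1.51. For TUB6 over TUA1, the pair with the greatest difference, it was 1.52 ± 0.20 in isoxaben and -0.82 ± 0.42 in control cultures, a difference of 2.34. Among the 3 beta-tubulins that rose, the ratio of TUB6 over TUB7 did not overlap between the groups, with -2.13 ± 0.30 in isoxaben and -2.45 ± 0.02 in control cultures (SD, n = 3 each), a difference of 0.32. The ratio of TUB5 over TUB7 was -3.72 ± 0.08 in isoxaben and -3.75 ± 0.28 in control cultures (SD, n = 3 each), which overlapped, and TUB6 over TUB5 overlapped as well. The third overlapping pair was TUA6 over TUB1, the members that did not pass the test. An exact permutation test, two-sided, gave p = 0.1 for each of the 18 pairs, which is the smallest p that 3 against 3 arrays allow, and 0.117 after Benjamini-Hochberg adjustment over the 21 pairs. The pairs share genes and arrays. Their ratios use the same signals as the tests above and so give no separate evidence of unequal change. Pairs with TUB5 hold a member that passed the filter through the isoxaben arrays alone. A ratio describes unequal change, not the abundance of a tubulin relative to another.

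**Figure D2:**
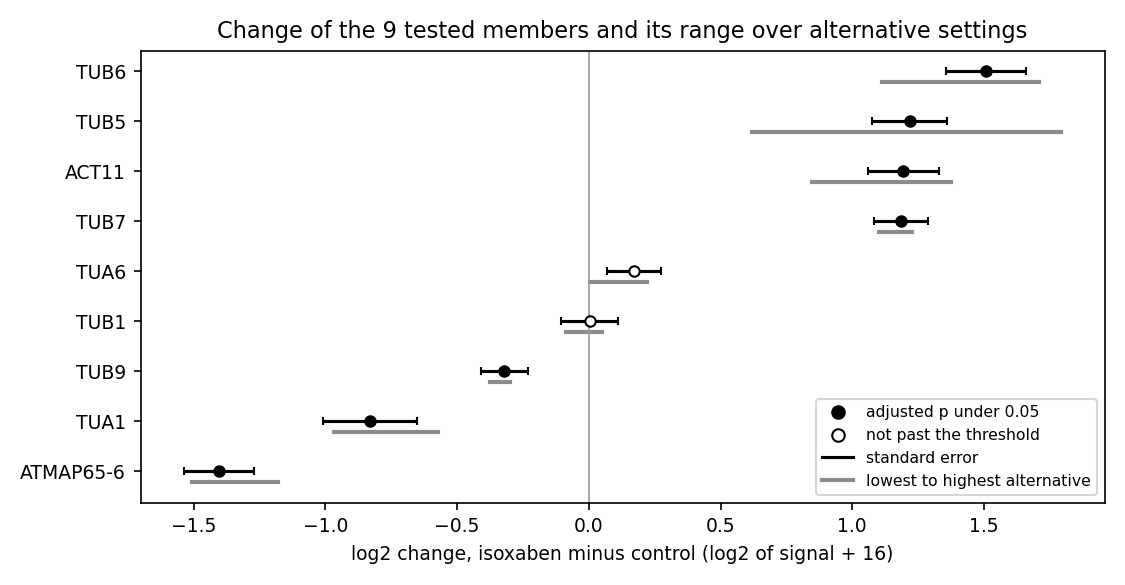
Log2 change of the 9 tested members (isoxaben minus control; black points with SE as bars, filled where the adjusted p was under 0.05), with the lowest to highest value over the alternative settings as a grey line below each. TUB6, TUB5, ACT11 and TUB7 lie above 0 and TUB9, TUA1 and ATMAP65-6 below 0 under every alternative that tested them, and the grey line of TUB1 crosses 0.

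Of the actins, ACT11 had 157.6, 188.6 and 146.9 in isoxaben cultures, against 71.8, 55.4 and 61.0 in control cultures. The groups did not overlap, and the log2 change was 1.19 ± 0.13 (SE; limma adjusted p = 4.21e-05). ACT12 had 0.5, 2.2 and 1.5 in isoxaben cultures and 0.5, 1.6 and 1.9 in control cultures. All 6 of these signals lay below the filter signal, so the filter left ACT12 out and no fold change is given.

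ATMAP65-6, the member of the MAP65 family, showed the largest fall of the members. It had 126.6, 168.3 and 139.6 in isoxaben cultures, against 449.8, 362.1 and 413.5 in control cultures. The highest isoxaben array was 193.8 units below the lowest control array, and the log2 change was -1.40 ± 0.13 (SE; limma adjusted p = 1.29e-05).

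All 7 members past the threshold had the same direction in both title sets. As their groups did not overlap, any split of the arrays would give that, so only the sizes are informative. In the first set, with 1 array of each group and no test, TUB6 changed by 1.93, TUB7 by 1.3, TUB5 by 1.09, ACT11 by 0.98, TUB9 by -0.27, TUA1 by -1.10 and ATMAP65-6 by -1.71. Within the second set, the differences were 1.3 for TUB6, 1.13 for TUB7, 1.28 for TUB5, 1.3 for ACT11, -0.34 for TUB9, -0.70 for TUA1 and -1.25 for ATMAP65-6. TUA6 was higher in both sets (0.35 and 0.083), whereas TUB1 was higher in the first and lower in the second (0.18 and -0.085). Without isoxaben replicate 1, the array with the DCB code, the log2 changes were 1.37 for TUB6, 1.21 for TUB7, 1.20 for TUB5, 1.22 for ACT11, -0.33 for TUB9, -0.87 for TUA1 and -1.32 for ATMAP65-6. All 7 calls held in that fit, and likewise in the fit without control replicate 1.

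**Figure D3:**
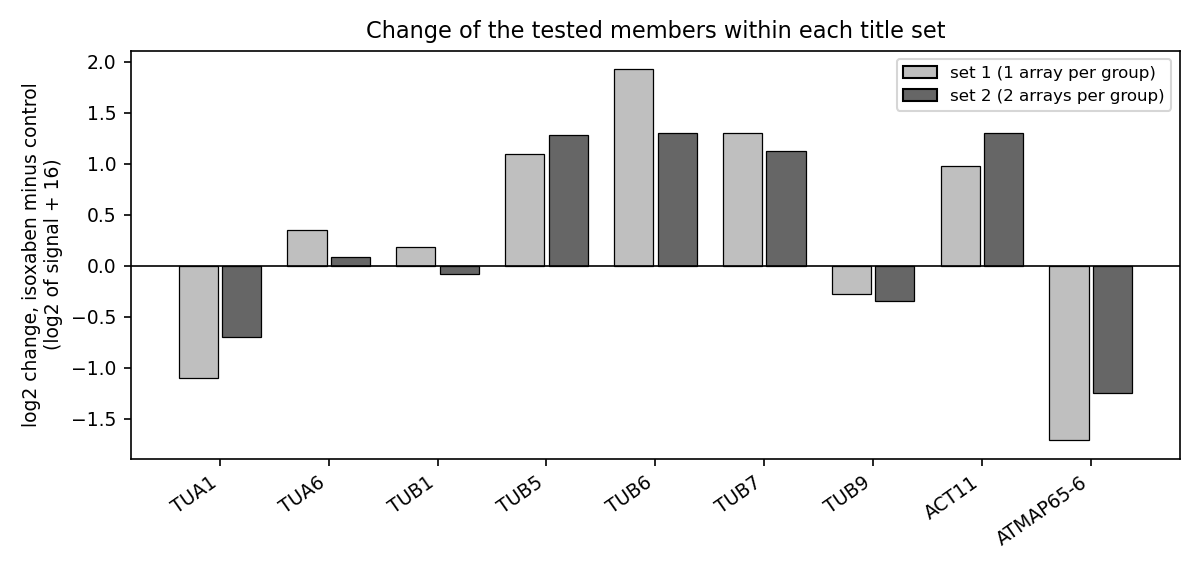
Log2 change (isoxaben minus control, log2 of signal + 16) of each tested member within the first title set (light bars, 1 array per group) and the second (dark bars, 2 arrays per group). The bars of a member point the same way for all but TUB1, where they are 0.18 and -0.085. For members whose groups do not overlap, the shared direction follows from that separation.

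Markers of other cell types and states were measured beside these genes. A list entry, synonyms included, counts as measured where it matched a named probe set of 1 gene. As 8730 probe sets had no gene name here, an unmatched entry can still be on the array. The dividing-cell list had 4 measured genes of 24 entries. They were the mitotic Aurora kinases AUR1, AUR2 and AUR3 and the replication licensing factor PRL. All 4 were called higher in isoxaben cultures (log2 changes of 1.15 to 2.17), as were 29.4% of all probe sets tested. A call higher with a log2 change of at least 1 was found for 11.0% of all probe sets. The summed signal of the 4 genes was 1142 to 1161 in isoxaben and 321 to 344 in control arrays. Of the control signals of AUR2, 2 lay below the filter signal of 22.1. LHCB4.1, a light-harvesting protein and the single measured gene of 12 leaf entries, had 202 to 213 in isoxaben and 34.9 to 54.8 in control arrays. Of the pollen list, 4 of 14 entries were measured, and 3 of them are members. The fourth, SHT, had signals of 3.8 to 5.5 in isoxaben and 4.2 to 7.7 in control arrays, so that SHT and ACT12 were near 0 while TUA1 and TUB9 were not. The root hair genes EXPA7 and EXPA18, 2 of 10 entries, summed to 21.8 to 28.6 in isoxaben and 13.6 to 21.1 in control arrays. Each of them lay below the filter signal on every array and was not tested. EXPA7 overlapped between the groups, with 14.8 to 18.4 in isoxaben and 11.0 to 17.9 in control arrays. EXPA18 had 7.0 to 10.2 in isoxaben and 2.6 to 5.0 in control arrays. The part of these cell types and states in the members' changes was not tested.

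Other genes of the cytoskeleton were taken from 6 lists with 304 entries, synonyms included. Of these, 28 genes beside the members had a named probe set, and 22 of them passed the filter. The test called 8 higher and 2 lower, which is 45.5% of them, against 56.6% of all probe sets tested, and their median log2 change was 0.15. Of the 2 kinesins, KINESIN-12B, a motor of the phragmoplast, rose (57.3 ± 5.95 in isoxaben and 7.43 ± 1.70 in control cultures, SD, n = 3 each; log2 change 1.64). All control signals of KINESIN-12B lay below the filter signal, so it passed the filter through the isoxaben arrays, and with a pseudocount of 64 its change was 0.76. It fell below the filter, and so left the test, when any 1 isoxaben array was left out, with a pseudocount of 1 and with the 60th percentile filter. With no filter its limma adjusted p was 0.000107. KINESIN-13A, a kinesin of the internal-motor type, fell to 152 ± 9.0 in isoxaben, against 216 ± 4.04 in control cultures (SD, n = 3 each; log2 change -0.47).

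On the list of microtubule-associated proteins, ATMAP65-6 fell, as given above, and of the other 4 tested genes 2 rose. The rises were SPR1, a microtubule plus-end protein needed for straight growth (1315 ± 151 in isoxaben and 924 ± 124 in control cultures, SD, n = 3 each; log2 change 0.50 ± 0.13 SE), and its relative SP1L3 (0.51 ± 0.13). Both calls were lost when arrays were centred on their medians (limma adjusted p = 0.0537 and 0.0514), and with quantile normalization SPR1 changed by 0.29. TON1B, a protein of the preprophase band (-0.29 ± 0.12; limma adjusted p = 0.0672), and WDL3 (-0.11 ± 0.16) did not pass. Neither did the tubulin-folding cofactors POR (-0.25 ± 0.20) and PFI (-0.15 ± 0.13).

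On the list of actin-binding and actin-nucleating proteins, 2 of 7 tested genes rose and 1 fell. NET1A, an actin-binding protein of the cell periphery, had 112 ± 17.2 in isoxaben and 31.1 ± 1.40 in control cultures (SD, n = 3 each; log2 change 1.43 ± 0.13 SE), and 0.88 with a pseudocount of 64. The LIM proteins, which bundle actin filaments, did not share a direction. WLIM2a rose by 1.05 ± 0.11, WLIM2b fell by 0.72 ± 0.16 on the log2 scale, and WLIM1 (-0.0019 ± 0.098) and PLIM2b (0.26 ± 0.17) did not pass. PIR121 (0.27 ± 0.14) and BRK1 (0.098 ± 0.14), subunits of the complex that activates actin nucleation by ARP2/3, did not pass either. Of 5 tested class XI myosins, XIC rose (73.5 ± 5.89 in isoxaben and 33.6 ± 6.99 in control cultures, SD, n = 3 each; log2 change 0.86 ± 0.14 SE), and its change was 0.50 with a pseudocount of 64. XIE rose by 0.42 ± 0.15 (limma adjusted p = 0.0402), with all control signals below the filter signal, and by 0.19 with a pseudocount of 64. The call of XIE was lost without any 1 of the arrays except control replicate 1 (limma adjusted p up to 0.165), with no filter (0.0705) and with the replicate block (0.0790). XI-I, XIH and XIJ did not pass. SCN1, an inhibitor that holds ROP GTPases inactive, rose by 0.46 ± 0.12, a call lost with median centring (limma adjusted p = 0.0522), while the ROP activator SPK1 changed by 0.079 ± 0.20 and did not pass.

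**Figure D4:**
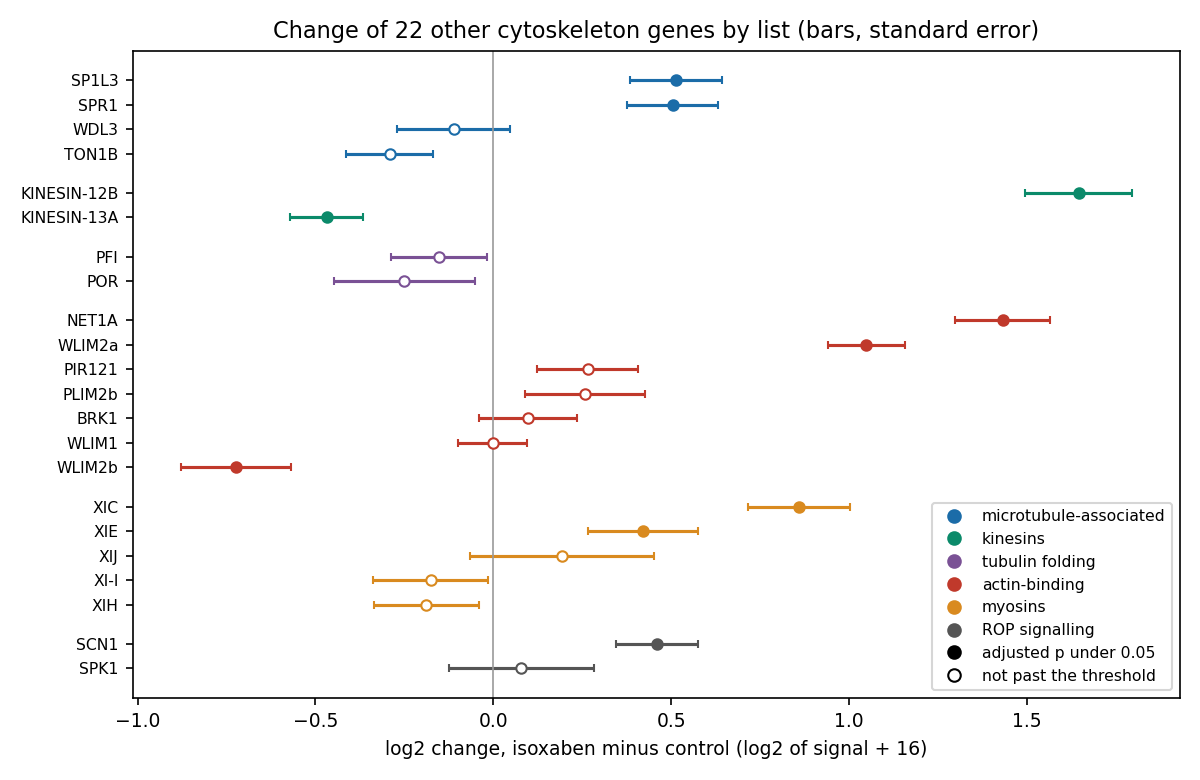
Log2 change (isoxaben minus control, log2 of signal + 16) with SE of the 22 tested genes of the 6 wider cytoskeleton lists, the members left out, coloured by list and filled where the adjusted p was under 0.05. Filled points lie on both sides of 0 among kinesins and actin-binding proteins. The filled points of the microtubule-associated list lie above 0, but ATMAP65-6, a member on that list with a change of -1.40, is not drawn.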

How the data were processed

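The deposited table holds intensity values, 1 linear signal for each of 22810 ATH1 probe sets per array. Per the labels' protocols, total RNA was labelled as biotinylated cRNA. The algorithm by which the authors derived intensity was not given in the sources used here, and no detection calls came with it. It had been scaled before deposit, as a mean trimmed by 2% per end lay between 100.006 and 100.008 for each array. Precision is limited by having 3 arrays a group.

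Sample titles gave the groups. No label says that replicates were separate cultures, so the p-values reflect the spread between these samples, possibly technical. No 2 arrays shared more than 1.44% of equal values. Same-numbered arrays of both groups shared deviations from the group mean (correlations 0.207, 0.110 and 0.128 across probe sets), but so did differently numbered arrays of the second title set (0.101 and 0.118).

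After removal of the 64 control probe sets, log2(signal + 16) was computed, and probe sets under the 40th percentile of mean log2 value (a signal of 22.1) were dropped. The rest were tested with limma 3.58.1 in R 4.3.3 (lmFit, eBayes with an intensity trend, two-sided, no covariate, Benjamini-Hochberg adjustment). The fit was checked on simulated data with a common spread and far fewer changed probe sets than were called here. That check does not cover a comparison with this many changes. Fold changes on this scale understate changes of dim genes. The platform annotation named the genes, and a RefSeq table (TAIR10.1 assembly) matched all 10 members. Wider lists were matched by symbol or synonym. RNA of close paralogs can bind a probe set, which was not tested. Members and lists were chosen with earlier results of these data known. All members are named, and of each wider list up to 3 rises and 3 falls with the smallest p. The other tested genes of the wider lists are named as well. Wider-list genes below the filter are named only as examples, chosen with their values in view. The alternatives comprised quantile normalization, median centring, pseudocounts of 1 and 64, no filter or the 60th percentile, replicate and title set blocks, the second title set alone, a single prior variance, averaged probe sets of a gene, and leaving out each array.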

Additional observations from a re-analysis of the deposited data

How the results depend on the processing

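Under the 17 alternatives, the calls of TUB6, TUB7, ACT11, TUA1 and ATMAP65-6 kept their direction and passed limma's threshold. TUB5 did so in the 16 that tested it, as the 60th percentile filter dropped it. Between 3 and 4 members were called higher and 2 to 3 lower. Leaving out each array gave 0 to 1 beta-tubulins called lower, since TUB9 was lost without isoxaben replicate 2 (-0.31) or control replicate 3 (-0.30), a fit with fewer samples. TUB1, which was never called, had a log2 change of -0.045 with median centring, -0.085 in the second title set alone, and -0.067 to 0.046 when 1 array was left out, beside 0.0033 with all. In the wider lists, 5 genes instead of 8 were higher with median centring and 4 with the 60th percentile filter, which tests fewer genes. There were 4 instead of 2 lower in the second title set alone, and for median centring and the second set the cause was not tested. The replicate block changed no member's call: the counts stayed at 4 higher and 3 lower, and over all probe sets they were 4250 and 3913, against 4011 and 3715 without it. Over all probe sets the alternatives gave 2952 to 4819 higher and 2974 to 4212 lower. Signals near the filter limit TUB5, and ACT12 lay below it on every array.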

Other observations

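Among the wider-list genes that the filter left out, 2 had group ranges that did not overlap and isoxaben signals near or above the filter signal of 22.1, and they were picked out after their values were seen. Among all probe sets tested, the groups did not overlap for 63.2%. VIIIB, a class VIII myosin, had 30.5 to 43.7 in isoxaben and 6.0 to 10.6 in control arrays. SP1L2, a relative of SPR1, had 19.2 to 28.2 in isoxaben and 2.2 to 6.8 in control arrays. Both had all control signals below the filter signal and were outside the test with the filter. With no filter their log2 changes were 1.08 ± 0.16 (SE; limma adjusted p = 0.00143) for VIIIB and 1.01 ± 0.15 (0.00118) for SP1L2, and both sizes depend on the pseudocount. As these genes were picked by their values, the p-values give no separate support. NET3B, an actin-binding list gene that was also left out, did not overlap in the other direction. It had 1.3 to 1.6 in isoxaben and 2.3 to 5.1 in control arrays, all below the filter signal.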
